A study of Mus musculus with 17 samples.

Results

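The 9 genes described here encode 3 secreted growth factors of neurons, Bdnf, Ntf3 and Gdnf, and 6 of the receptor subunits that bind such factors, Ntrk2, Ntrk3, Ngfr, Gfra1, Gfra2 and Ret. They were taken by symbol from the 56953 genes of the deposited count table, and all 9 were found and passed the filter on low counts. RNA was measured in 17 bulk libraries of mouse prefrontal cortex at 8 months of age. All mice were of the B6C3F1/J background on regular chow. WT mice (n = 5) carried neither modification. hTau mice (n = 6), also called PS19, were heterozygous for a transgene of human Tau with the P301S mutation driven by the mouse Prnp promoter. CgA-KO/hTau mice (n = 6) carried the same transgene and lacked chromogranin A, the product of Chga, congenitally and in the whole body, after a Cre-loxP deletion. No CgA-KO library without the transgene was analysed here, so the deletion could be read only on the hTau background. No count of Chga was found in the CgA-KO/hTau libraries, where WT had a mean of 162.5 CPM and hTau 168 CPM (CPM are counts divided by the normalized size of the library).

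Neurotrophins are secreted as precursors, cleaved by proteases and bound by receptor tyrosine kinases of the Trk family: BDNF by TrkB (Ntrk2) and neurotrophin-3 mainly by TrkC (Ntrk3). The p75 receptor (Ngfr) binds all neurotrophins and their precursors, and in the adult forebrain it is best known from cholinergic neurons. GDNF works through a different receptor, in which a lipid-anchored subunit, GFRα1 (Gfra1) for GDNF or GFRα2 (Gfra2) for the related factor neurturin, presents the ligand to the kinase RET (Ret). In the cortex BDNF is made by excitatory neurons and acts on synapses, whereas Gdnf is best known in the adult forebrain from interneurons of the striatum.

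Some libraries stood apart, and their values are given here because they recur beside the results. The shallowest library was WT replicate 4 with 8838334 counts, where the median of the groups lay between 56950953 and 153213148 counts. The Y-linked gene Ddx3y separated the libraries by number, with 49.8 to 76.8 CPM in replicates 1 to 3 and 0.0582 CPM or less in replicates 4 to 6, in all genotypes. The paper reports males and females in each group, in numbers that match the libraries with and without Ddx3y. By that match replicates 1 to 3 would be the males and replicates 4 to 6 the females, but the labels give no sex for a library. The libraries of hTau replicates 4 to 6 were nearly identical, with a spread of their log2 ratios (scaled median absolute deviation) of 0.0523 to 0.0607 over 3761 genes, and CgA-KO/hTau replicates 1 and 3 followed at 0.0980, so that p-values measure a spread that may be partly technical. Markers of cortical excitatory neurons were present in all groups, at a summed level of 2795 to 5590 CPM. The 10 markers of striatal medium spiny neurons summed to 1102 to 3183 CPM in WT, to 162 to 218 CPM in hTau, and, in CgA-KO/hTau, to 1764, 421 and 1781 CPM in replicates 1 to 3 but 196 to 223 CPM in replicates 4 to 6. The mitochondrial share of counts was highest in CgA-KO/hTau replicates 1 to 3, at 13.8 to 18.2%, and was 2.56 to 10.9% elsewhere. Of 8 markers of GABAergic interneurons, 4 were called lower in CgA-KO/hTau than in hTau. Their sums were 786 to 808 CPM in CgA-KO/hTau replicates 1 to 3, 1247 to 1299 CPM in its replicates 4 to 6 and 1426 to 1647 CPM in hTau. WT replicate 5 also held 1099.5 CPM of choroid plexus markers, against 4.13 to 18.1 CPM in the others.

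The genes lie on 8 chromosomes (GRCm38, GENCODE M21 positions). Bdnf occupies chr2:109674700-109727007 on the plus strand, Ntf3 chr6:126101412-126166910 on the minus strand, Gdnf chr15:7810846-7837575 on the plus strand, Ntrk2 chr13:58806569-59133970 on the plus strand and Ntrk3 chr7:78175959-78738012 on the minus strand. Ngfr lies at chr11:95568818-95587735 and Gfra1 at chr19:58235604-58455909, both on the minus strand. Gfra2 lies at chr14:70890120-70979838 on the plus strand and Ret at chr6:118151745-118197718 on the minus strand. Counts were of whole genes, so the 11 protein-coding transcripts of Bdnf were merged, as were the 7 of Ntrk2, which include full-length kinase and truncated forms. An antisense gene, Gm45346, covers 14.4% of the exonic length of Bdnf, and Gm16277 covers 7.60% of that of Gfra1; because the strand setting of the counting is not given in the sources used here, reads of those stretches could not be assigned.

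RefSeq (GRCm38.p6) gave 14 start sites for 6 of the 9 genes, and at 12 of them, in 5 genes, the stretch ahead of the start that lies outside annotated exons was long enough to be searched. That stretch is shown at 1 start site of each of 3 genes whose RNA was higher in WT than in hTau, 5′ to 3′ on the strand of the gene, with motif matches in capitals. The Gdnf window is chr15:7809798-7810047 (plus strand, 250 bases, the first of 2 start sites), which lies ahead of the gene span given above. The Ntf3 window is chr6:126164961-126165210 (minus strand, 250 bases, the second of 2 start sites, which lies within the span of the gene). The Ngfr window is chr11:95587736-95587948 (minus strand, 213 bases).
Gdnf promoter: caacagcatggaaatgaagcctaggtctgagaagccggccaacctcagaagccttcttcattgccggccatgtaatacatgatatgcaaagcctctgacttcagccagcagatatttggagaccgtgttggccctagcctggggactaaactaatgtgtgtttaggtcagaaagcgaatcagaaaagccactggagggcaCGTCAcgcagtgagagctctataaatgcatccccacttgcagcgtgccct
Ntf3 promoter: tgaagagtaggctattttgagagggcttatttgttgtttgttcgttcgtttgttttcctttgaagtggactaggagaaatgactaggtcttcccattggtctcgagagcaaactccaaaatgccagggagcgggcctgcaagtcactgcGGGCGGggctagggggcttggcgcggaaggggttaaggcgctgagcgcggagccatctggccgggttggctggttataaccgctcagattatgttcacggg
Ngfr promoter: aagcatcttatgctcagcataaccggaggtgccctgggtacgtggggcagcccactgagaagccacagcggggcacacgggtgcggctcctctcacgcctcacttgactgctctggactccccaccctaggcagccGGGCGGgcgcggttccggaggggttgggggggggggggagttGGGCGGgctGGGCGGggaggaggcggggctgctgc
The letters searched on both strands were TGACG, the core of the cAMP response element, GGGCGG, the GC box, and CACGTG, an E-box. The Gdnf window shown holds 1 TGACG, which reads CGTCA on the strand shown, and neither other motif. The window of the second Gdnf start site, chr15:7813477-7813726, holds none of these motifs. The Ngfr window, at 70.9% G and C, holds 3 copies of GGGCGG, and the Ntf3 window, at 54.0%, holds 1. Of 32851 promoter windows of 250 bases, 17.8% held TGACG, 32.7% GGGCGG and 6.02% CACGTG; among windows cut to 213 bases, GGGCGG was in 27.4%. The matches are a description of the letters and were not tested as binding sites.

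The level of each gene in each library shows the spread on which the comparisons rest. In bulk tissue, fewer cells of a type and less RNA per cell cannot be told apart. A gene was called when its adjusted p (edgeR's quasi-likelihood test, Benjamini-Hochberg over 23062 genes) was under 0.05. Differences are on the log2 scale with their standard error (SE).

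**Figure D1:**
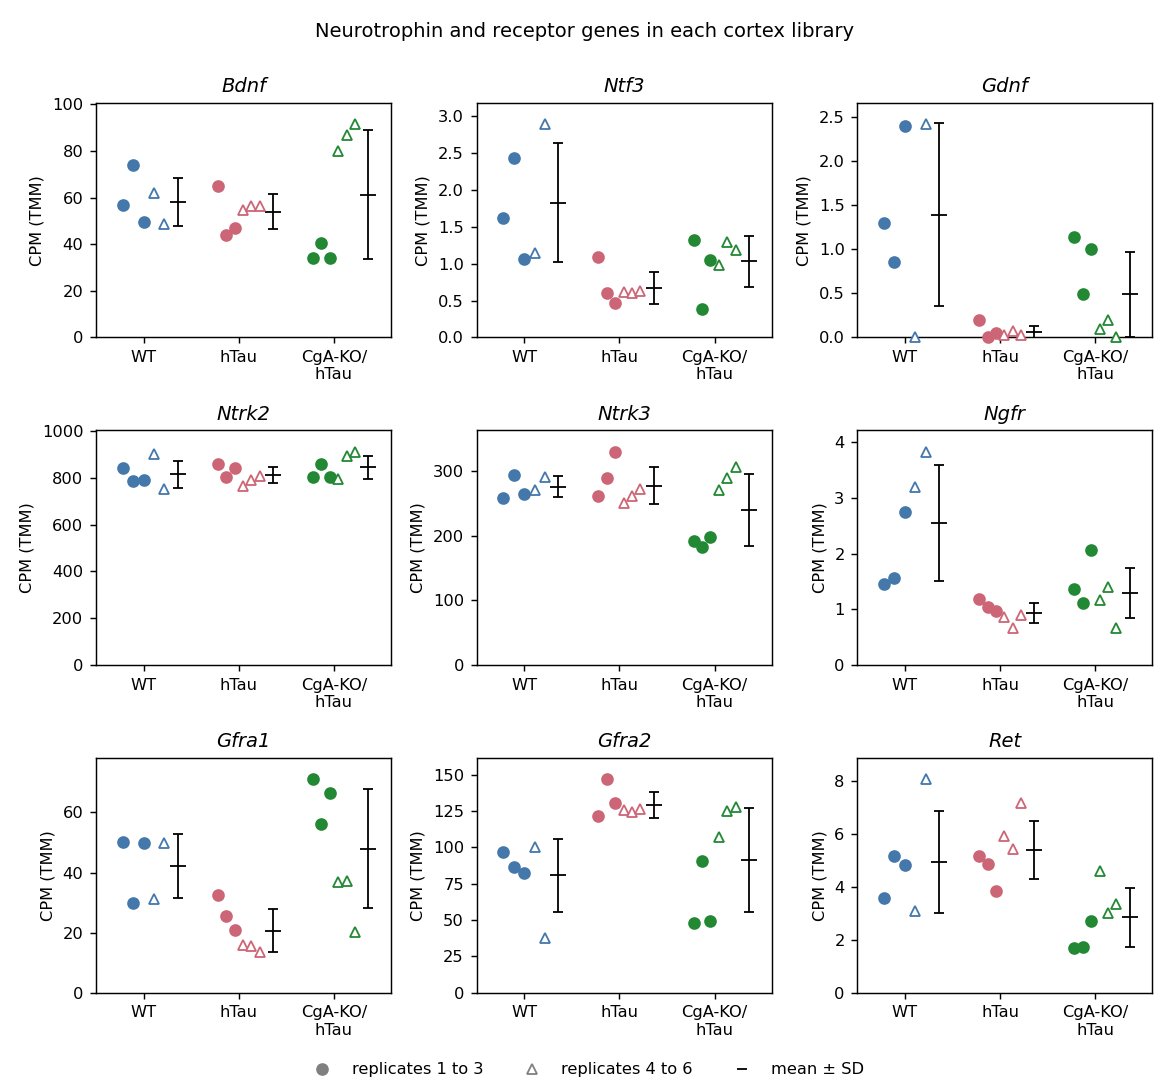
Level of each of the 9 genes in each of 17 libraries, in CPM on a linear axis from 0, by genotype; filled circles are replicates 1 to 3, open triangles replicates 4 to 6 and black bars the mean ± SD of the genotype, ending at the axis where they reach 0. Ntrk2 hardly varied, Ngfr lay higher in each WT library than in any hTau library, and the CgA-KO/hTau libraries of Bdnf, Gdnf, Ntrk3, Gfra1, Gfra2 and Ret lay in separate sets for replicates 1 to 3 and 4 to 6.

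Of the ligands, Gdnf and Ntf3 were higher in WT than in hTau, and Gdnf was also higher in CgA-KO/hTau than in hTau. Gdnf, a survival factor for dopaminergic and motor neurons, was scarce. In WT replicates 1 to 5 it was at 1.30, 0.861, 2.40, 0 and 2.42 CPM. In hTau it was between 0 and 0.200 CPM with a median of 0.0417 CPM, which came from at most 11 counts in a library, or about 4 fragments. CgA-KO/hTau replicates 1 to 3 had 1.14, 0.498 and 1.01 CPM and replicates 4 to 6 had 0.0978, 0.203 and 0 CPM. WT libraries other than replicate 4 lay above each hTau library, and the 0 of WT replicate 4 allows up to 1.03 CPM at its depth. CgA-KO/hTau replicates 1 to 3 lay above hTau, whereas replicates 4 to 6 lay within or at the edge of its range. Gdnf was 4.74 higher on the log2 scale in WT than in hTau (SE 0.954, adjusted p = 0.00615, edgeR) and 3.19 higher in CgA-KO/hTau than in hTau (SE 0.911, adjusted p = 0.0356). The CgA-KO/hTau call was lost when any of hTau replicates 2 to 6 or CgA-KO/hTau replicates 1 to 3 was left out, with adjusted p between 0.0175 and 0.0815 over the 17 omissions.

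Ntf3 encodes neurotrophin-3, the main ligand of TrkC. Its levels in WT replicates 1 to 5 were 1.62, 2.43, 1.06, 1.14 and 2.89 CPM. In hTau the lowest was 0.467, the median 0.614 and the highest 1.09 CPM, the last in replicate 1. In CgA-KO/hTau the lowest was 0.379, in replicate 2, the median 1.12 and the highest 1.32 CPM. WT and hTau overlapped only where WT replicate 3 fell below hTau replicate 1. The difference between WT and hTau was 1.49 (SE 0.323, adjusted p = 0.0102), and without WT replicate 5 the adjusted p was 0.0501. CgA-KO/hTau differed from hTau by 0.64 (SE 0.308, adjusted p = 0.186), which was not past the threshold.

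Bdnf, the highest of the 3 ligands per length of exon, was not called in any comparison of all libraries, yet the CgA-KO/hTau libraries fell on both sides of the other genotypes. WT replicates 1 to 5 were at 57.0, 74.1, 49.6, 61.8 and 48.6 CPM, and hTau ranged from 43.7 to 64.8 CPM with a median of 55.6 CPM. CgA-KO/hTau replicates 1 to 3 were at 34.2, 40.7 and 34.1 CPM, below each WT and hTau library. Replicates 4 to 6 were at 80.2, 86.9 and 91.5 CPM, above each of them. The genotype mean of CgA-KO/hTau, 61.3 ± 27.7 CPM (SD, n = 6), therefore describes no library, and the difference from hTau over all libraries was 0.19 (SE 0.235, adjusted p = 0.645). The difference between WT and hTau was 0.11 (SE 0.246, adjusted p = 0.845).

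Of the neurotrophin receptors, Ngfr was higher in WT than in hTau, and neither Trk kinase gene was called. Ntrk2, the BDNF receptor, was the steadiest of the 9 genes. WT replicates 1 to 5 were at 841, 786, 790, 899 and 753 CPM, hTau at 765 to 857 CPM (median 807) and CgA-KO/hTau at 797 to 911 CPM (median 830). The ranges overlapped throughout. The log2 differences from hTau were 0.00 in WT (SE 0.0781, adjusted p = 0.985) and 0.06 in CgA-KO/hTau (adjusted p = 0.654).

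Ntrk3, the receptor of neurotrophin-3, was at 258, 294, 264, 271 and 291 CPM in WT replicates 1 to 5 and at 251 to 330 CPM in hTau (median 267). The CgA-KO/hTau libraries read 192, 182 and 197 CPM in replicates 1 to 3 and 270, 290 and 306 CPM in replicates 4 to 6. As with Bdnf, replicates 1 to 3 lay below each WT and hTau library, while replicates 4 to 6 lay within the range of hTau. Over all libraries CgA-KO/hTau differed from hTau by -0.21 (SE 0.127, adjusted p = 0.289) and WT from hTau by -0.01 (SE 0.133, adjusted p = 0.985).

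Ngfr, the p75 receptor, was scarce in this tissue. Its levels were 1.45, 1.55, 2.74, 3.19 and 3.82 CPM in WT replicates 1 to 5. The 6 hTau libraries ranged from 0.666 to 1.18 CPM (median 0.931) and the CgA-KO/hTau libraries from 0.664 to 2.05 CPM (median 1.26). Each WT library was above each hTau library, by 1.44 on the log2 scale (SE 0.284, adjusted p = 0.00535). CgA-KO/hTau overlapped both, with a log2 difference of 0.48 from hTau (SE 0.270, adjusted p = 0.252) and of -0.96 from WT (SE 0.284, adjusted p = 0.0513), neither of them called. A list of 6 markers of cholinergic neurons of the basal forebrain or striatum had all 6 genes called higher in WT than in hTau, with sums of 13.2 to 45.5 CPM in WT and 1.46 to 2.57 CPM in hTau. Its defining genes Isl1 and Lhx8 were at 0 in each hTau library. In CgA-KO/hTau the list summed to 18.9, 2.27 and 18.3 CPM in replicates 1 to 3 and to 1.2538 to 1.6002 CPM in replicates 4 to 6. Ngfr in these libraries was at 1.36, 1.12 and 2.05 CPM and at 1.16, 1.401 and 0.664 CPM. Replicates 1 to 3 and 4 to 6 thus overlapped in Ngfr but not in the sum. The part of the list in the Ngfr result was not tested.

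Of the GDNF receptor genes, Gfra1 was higher in both WT and CgA-KO/hTau than in hTau, and Ret was lower in CgA-KO/hTau than in hTau. Gfra1, the GDNF-binding subunit, was at 50.2, 29.9, 50.0, 31.0 and 50.0 CPM in WT replicates 1 to 5. In hTau, replicates 1 to 3 were at 32.5, 25.6 and 20.8 CPM and replicates 4 to 6 at 15.9, 15.4 and 13.7 CPM. In CgA-KO/hTau, replicates 1 to 3 were at 71.0, 56.1 and 66.4 CPM and replicates 4 to 6 at 36.8, 37.1 and 20.1 CPM. Replicates 1 to 3 of CgA-KO/hTau were the highest libraries of all, and only hTau replicate 1 reached into the WT range. Gfra1 was 1.22 higher in CgA-KO/hTau than in hTau (SE 0.281, adjusted p = 0.0146), a call kept with each of the 17 libraries left out (adjusted p at most 0.0390). It was 1.04 higher in WT than in hTau (SE 0.291, adjusted p = 0.0421), a call lost when WT replicate 1, 3 or 5 or any of hTau replicates 2 to 6 was left out (adjusted p up to 0.115).

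Gfra2, the neurturin-binding subunit, was called by edgeR in no comparison over all libraries. WT replicates 1 to 5 were at 97.0, 86.5, 82.4, 100.6 and 37.9 CPM, and hTau at 122 to 147 CPM (median 126). CgA-KO/hTau replicates 1 to 3 were at 48.2, 90.5 and 49.2 CPM and replicates 4 to 6 at 107, 125 and 128 CPM. No WT library overlapped hTau, but the spread within WT was wide and the log2 difference of -0.68 was not called (SE 0.261, adjusted p = 0.140). CgA-KO/hTau overlapped hTau through replicates 5 and 6, with a difference of -0.50 (SE 0.247, adjusted p = 0.191). Limma voom with quality weights called Gfra2 lower than hTau in both WT (-0.79, adjusted p = 0.0150) and CgA-KO/hTau (-0.69, adjusted p = 0.0365), and edgeR with only WT and hTau in the fit called it in WT (-0.68, adjusted p = 0.0443).

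Ret, the kinase shared by the GFRα subunits, was at 3.59, 5.16, 4.83, 3.08 and 8.07 CPM in WT replicates 1 to 5 and at 3.86 to 7.17 CPM in hTau (median 5.31). CgA-KO/hTau replicates 1 to 3 were at 1.68, 1.71 and 2.73 CPM and replicates 4 to 6 at 4.62, 3.01 and 3.35 CPM. Replicate 4 alone of the CgA-KO/hTau libraries reached the hTau range. Ret was lower in CgA-KO/hTau than in hTau by 0.92 on the log2 scale (log2 difference -0.92, SE 0.258, adjusted p = 0.0335) and differed from hTau by -0.11 in WT (SE 0.269, adjusted p = 0.870). The first call was lost when CgA-KO/hTau replicate 1, 2 or 3 or any hTau library other than replicate 3 was left out (adjusted p up to 0.0804).

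Counted over the 9 genes, WT minus hTau had 4 called, all higher, where 5.9% of all genes tested were called and 3.95% called higher. CgA-KO/hTau minus hTau had 3 called, where 9.72% of all genes were called; Gdnf and Gfra1 were higher (5.5% of all genes) and Ret lower (4.22%). CgA-KO/hTau minus WT had 0 called by edgeR, where 6.46% of all genes were called; 3 genes, Ntf3, Ngfr and Ret, had an unadjusted p under 0.05, as did 21.7% of all genes, and DESeq2 called 2, Ngfr and Ret. Libraries did not overlap for 2 of the 9 in WT minus hTau, Ngfr and Gfra2, where 9.52% of all genes did not overlap, and for 0 of the 9 in the other comparisons, where 6.63% and 3.6% did not. For Ngfr the share of all genes with each WT library above hTau was 4.39%, and for Gfra2 the share below was 5.13%. The median log2 difference over the 9 genes was 0.11, 0.19 and -0.20 in the 3 comparisons, beside -0.01, 0.03 and 0.01 over all genes. The comparisons with hTau share its 6 libraries, so their values for a gene are not independent. When the near-identical libraries were averaged to 1 sample each, none of the 9 genes was called by edgeR in any comparison, where 1.92%, 0.697% and 2.58% of all genes were called. The differences called before averaging kept their direction: in WT minus hTau they were then 1.44 for Ntf3 (adjusted p = 0.0824), 4.56 for Gdnf (adjusted p = 0.0627), 1.35 for Ngfr (adjusted p = 0.0540) and 0.86 for Gfra1 (adjusted p = 0.192). In CgA-KO/hTau minus hTau they were 2.62 for Gdnf (adjusted p = 0.242), 0.90 for Gfra1 (adjusted p = 0.162) and -0.73 for Ret (adjusted p = 0.215).

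**Figure D2:**
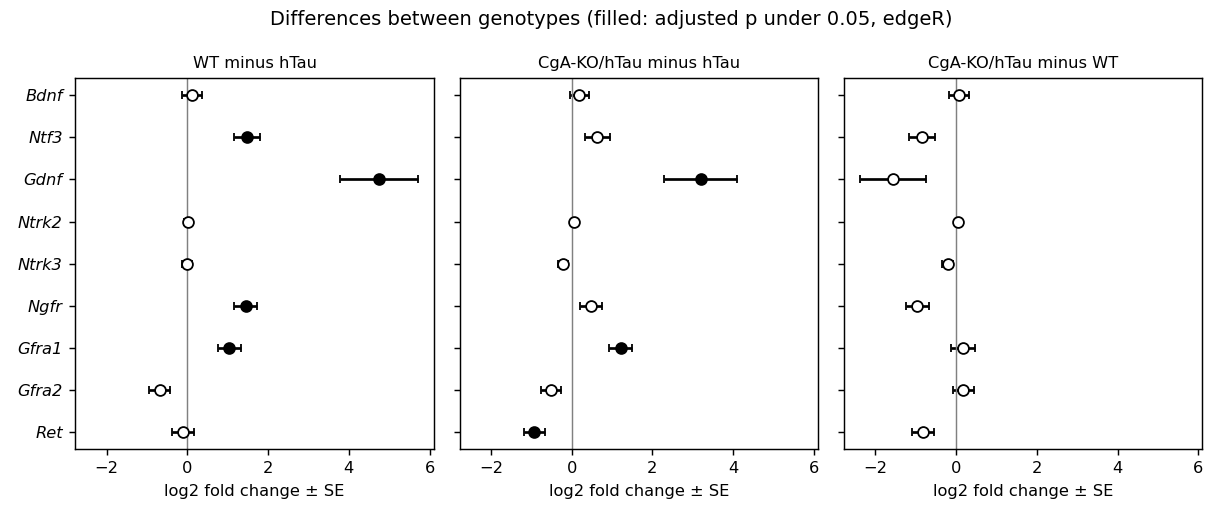
Log2 difference of each of the 9 genes in the 3 comparisons between genotypes, from edgeR over all 17 libraries; points are estimates, bars are plus and minus 1 SE, and filled points passed an adjusted p of 0.05. The filled points are Ntf3, Gdnf, Ngfr and Gfra1 in WT minus hTau and Gdnf, Gfra1 and Ret in CgA-KO/hTau minus hTau, and CgA-KO/hTau minus WT has none.

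Set against WT, the genotype without the transgene, CgA-KO/hTau had log2 differences of -0.96 for Ngfr (SE 0.284), -0.81 for Ret (SE 0.271, adjusted p = 0.0813), -0.85 for Ntf3 (adjusted p = 0.126) and -1.55 for Gdnf (adjusted p = 0.285), and none of these passed the threshold. The remaining 5 genes differed by -0.20 to 0.18.

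The split within CgA-KO/hTau set 6 of the 9 genes apart and was examined by fitting replicates 1 to 3 and replicates 4 to 6 separately, a choice made after the data had been seen. Mean levels in CgA-KO/hTau replicates 1 to 3 and 4 to 6 were 36.3 and 86.2 CPM for Bdnf, 190.3 and 288.6 CPM for Ntrk3, 62.6 and 119.9 CPM for Gfra2 and 2.04 and 3.66 CPM for Ret, each lower in the former. For Gdnf they were 0.882 and 0.100 CPM and for Gfra1 64.5 and 31.3 CPM, each higher in the former. Libraries of the 2 sets did not overlap for these 6 genes, nor for 35.1% of all genes tested, so such a split was common in these libraries.

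Among replicates 1 to 3, CgA-KO/hTau minus hTau had 5 of the 9 genes called by edgeR, where 31.1% of all genes were called. The CgA-KO/hTau libraries in this fit include the near-identical pair named above, so the spread behind its p-values may be partly technical. Gdnf was 3.75 higher (adjusted p = 0.0167) and Gfra1 1.31 higher (adjusted p = 0.00326). Gfra2 (-1.07, adjusted p = 0.00755), Ntrk3 (-0.61, adjusted p = 0.00281) and Ret (-1.15, adjusted p = 0.00704) were lower. Against WT, Bdnf (-0.72, adjusted p = 0.0257), Ntrk3 (-0.50, adjusted p = 0.00879) and Ret (-1.13, adjusted p = 0.0115) were lower, where 20.7% of all genes were called. WT minus hTau had 0 of the 9 called in these replicates by edgeR, where 0.592% of all genes were called. The differences there were 4.53 for Gdnf, 1.26 for Ntf3, 0.87 for Ngfr and 0.73 for Gfra1. Among replicates 4 to 6, CgA-KO/hTau minus hTau had 0 called by edgeR (0.806% of all genes), with differences of 1.05 for Gfra1 (SE 0.272), -0.77 for Ret (SE 0.339) and 1.29 for Gdnf (SE 1.24). In the same replicates WT minus hTau had Ntf3, Ngfr and Gfra1 called higher (adjusted p = 0.0344, 0.0144 and 0.0336; 5.81% of all genes), with 2 WT libraries. There, against WT, CgA-KO/hTau had more Bdnf (0.66, adjusted p = 0.0390) and less Ngfr (-1.70, adjusted p = 0.0442), where 3.05% of all genes were called. In the fit of replicates 4 to 6, the hTau libraries are the near-identical ones and WT replicate 4 is the shallowest library. The spread behind these p-values may therefore be partly technical. The difference between the sets was not tested itself. Ddx3y, the striatal markers and the mitochondrial share all move with the split in CgA-KO/hTau. So do sums of other marker lists, among them GABAergic interneurons, astrocytes and oligodendrocytes. Astrocyte markers summed to 1278 to 1422 CPM in replicates 1 to 3 and 677 to 916 CPM in replicates 4 to 6. Oligodendrocyte markers summed to 2462 to 2829 CPM and 1457 to 1578 CPM. The parts of all these in the split cannot be told apart.

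**Figure D3:**
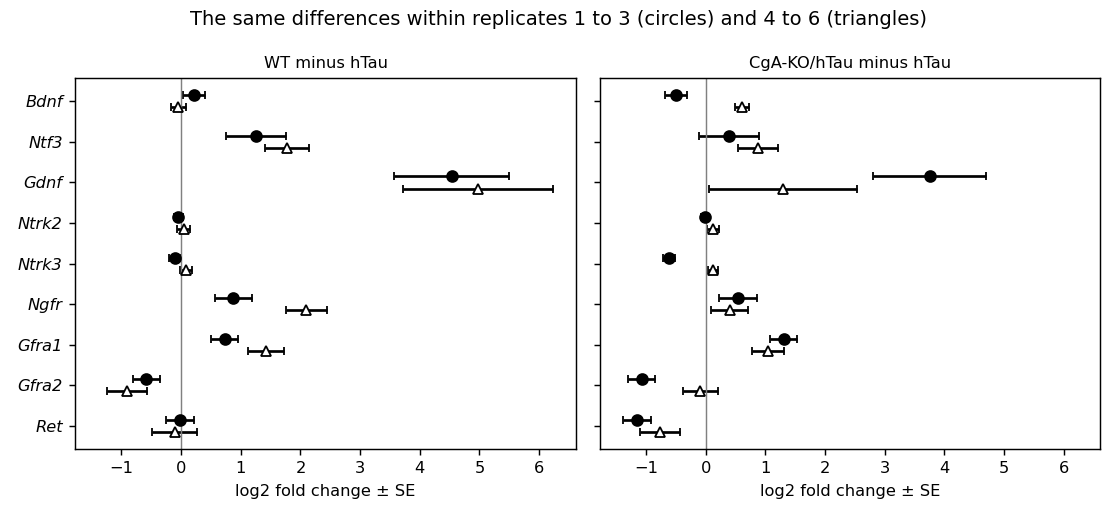
Log2 difference from hTau of each of the 9 genes in WT (left) and CgA-KO/hTau (right), fitted by edgeR separately among replicates 1 to 3 (filled circles) and replicates 4 to 6 (open triangles); bars are plus and minus 1 SE and the fill does not mark a call. In CgA-KO/hTau, Bdnf lies at -0.50 in replicates 1 to 3 and at 0.61 in replicates 4 to 6, and Gdnf at 3.75 and 1.29.

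The levels of several genes were also set beside the striatal markers. All 10 markers, among them the dopamine receptor genes Drd1 and Drd2, were called higher in WT than in hTau, and 7 of 10 in CgA-KO/hTau than in hTau. Gdnf was above 0.4 CPM only in libraries with a striatal sum over 400 CPM. WT replicate 4, with a sum of 1102 CPM, had 0 counts of Gdnf, which allows up to 1.03 CPM at its depth. Gfra2 was below 102 CPM in each of the 8 libraries with a sum over 400 CPM and above 102 CPM in the other 9. Among hTau libraries the striatal sum was 162 to 218 CPM. Gfra1 there was at 20.8 to 32.5 CPM in replicates 1 to 3 and at 13.7 to 15.9 CPM in the near-identical replicates 4 to 6. With the mean level of the 10 markers as a covariate, edgeR called 1, 1 and 3 of the 9 genes in WT minus hTau, CgA-KO/hTau minus hTau and CgA-KO/hTau minus WT, where 16.7%, 5.69% and 21.8% of all genes were called. The 7 calls in the comparisons with hTau were lost, but the differences moved unequally. In WT minus hTau, Ntf3 was at 1.37 (SE 0.533), Ngfr at 0.67 (SE 0.418), Gdnf at 1.31 (SE 1.14) and Gfra1 at -0.04 (SE 0.367). In CgA-KO/hTau minus hTau, Ret was at -0.80 (SE 0.292), Gfra1 at 0.67 (SE 0.242) and Gdnf at 1.13 (SE 0.814). Bdnf was then called in all 3 comparisons, at 1.28 (adjusted p = 0.00284), 0.58 (adjusted p = 0.0267) and -0.70. The Bdnf differences without the covariate were 0.11, 0.19 and 0.07. The covariate, on a centred log2 scale, was -1.58 to -1.38 in hTau, 0.936 to 2.78 in WT and -1.45 to 2.07 in CgA-KO/hTau. WT and hTau did not overlap in it, so genotype and covariate cannot be told apart in WT minus hTau. Calls lost or gained in that comparison therefore cannot be read as a loss or a gain.

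**Figure D4:**
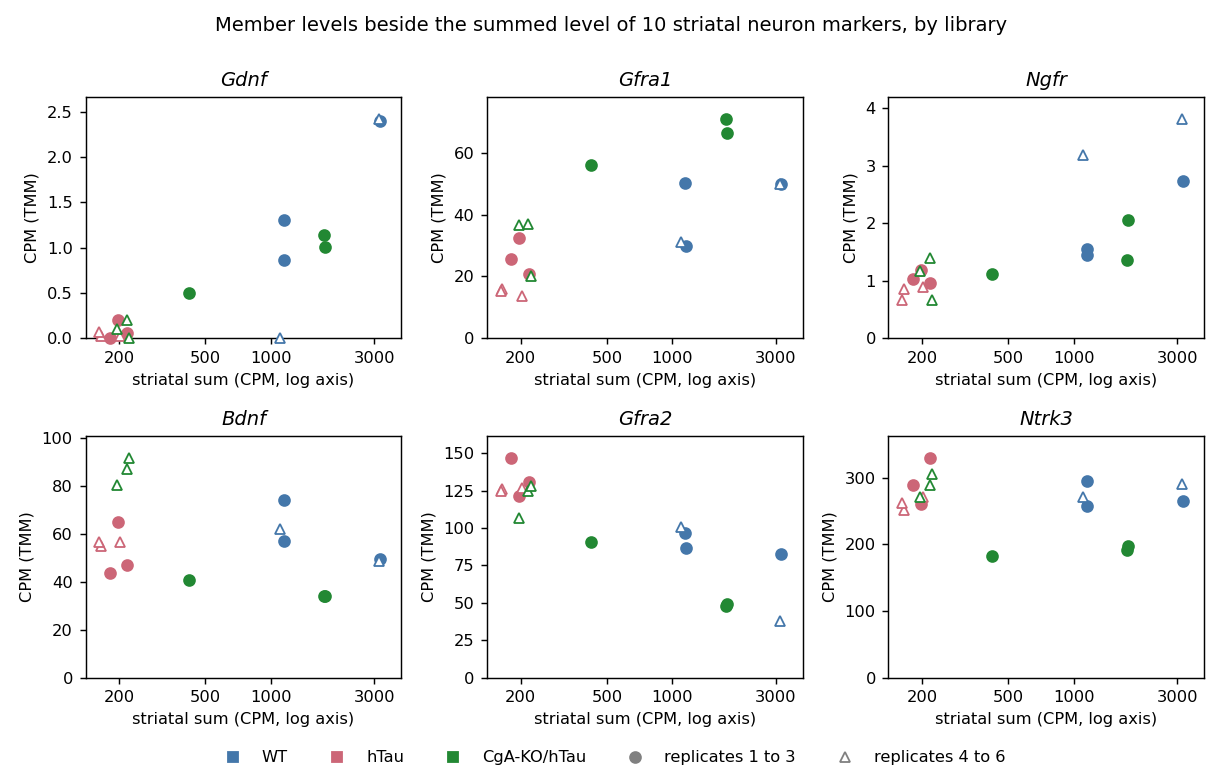
Level of Gdnf, Gfra1, Ngfr, Bdnf, Gfra2 and Ntrk3 (CPM, linear axis from 0) against the summed level of 10 striatal neuron markers (CPM, log axis) in 17 libraries; colours are genotypes, filled circles replicates 1 to 3 and open triangles replicates 4 to 6. The hTau libraries and CgA-KO/hTau replicates 4 to 6 share sums of 162 to 223 CPM, and the WT libraries and CgA-KO/hTau replicates 1 to 3 lie at 421 CPM and above.

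Per kilobase of exon, Ntrk2 had the highest level in each genotype, at 42.2 ± 2.97 CPM per kilobase in WT (SD, n = 5), 42.0 ± 1.75 in hTau (SD, n = 6) and 43.7 ± 2.58 in CgA-KO/hTau (SD, n = 6). Gfra2 came next at 22.9, 36.6 and 25.8 CPM per kilobase, and in hTau its range overlapped that of Ntrk2. Bdnf and Ntrk3 lay close together in each genotype (8.66 to 9.85 and 7.94 to 9.19 CPM per kilobase), and their ranges overlapped. Gfra1 was at 7.71, 3.77 and 8.75 CPM per kilobase, clear of its neighbours in hTau only. Ntf3, Ngfr and Ret were all at or under 1.07 CPM per kilobase, and their ranges overlapped in WT. Gdnf was lowest, at 0.380, 0.0173 and 0.134 CPM per kilobase. Truncated forms of the Trk receptors share part of these lengths, so the values are of the gene and not of the kinase form.

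The wider pathway was followed in 70 further genes, of which 65 were tested. In WT minus hTau, 4 were called, all higher, which was near the 5.9% of all genes. Among them were Ncam1, an alternative GDNF receptor (0.46, SE 0.132, adjusted p = 0.0452), and Pcsk5, a proprotein convertase (0.81, adjusted p = 0.0343). Ncam1 ranged from 305 to 413 CPM in WT and from 242 to 270.5 CPM in hTau, without overlap.

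In CgA-KO/hTau minus hTau, 2 of the 65 genes were higher, among them the adaptor gene Gab1 (0.52, SE 0.131, adjusted p = 0.0219), and 2 were lower: Rtn4r, a co-receptor that signals with p75 (-0.80, adjusted p = 0.0406), and Frs3, an adaptor of Trk receptors (-0.63, adjusted p = 0.0440). In CgA-KO/hTau minus WT, the adaptor genes Shc3 (0.93, adjusted p = 0.0455), Shc4 (0.63, adjusted p = 0.0341) and Rapgef1 (0.50, adjusted p = 0.0208) were higher and Ncam1 lower (-0.53, adjusted p = 0.0230). These 4 of 65 in each comparison set against 9.72% and 6.46% of all genes tested are no larger shares than the background. Of 16 genes that respond to TrkB or RET signalling, edgeR called 0 in each comparison, with 2, 2 and 5 at an unadjusted p under 0.05, beside 20.9%, 27.8% and 21.7% of all genes.

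Across the 17 libraries, the genes whose log2 levels followed each called gene most closely were found among 15466 genes with a mean of at least 1 CPM. For Gdnf they were Myt1 (Pearson r = 0.956), Rasgrp2 (0.940) and Rarb (0.940). For Gfra1 they were Oprk1 (0.920), Gnb4 (0.918) and Mapk3 (0.902). Ngfr was followed by Erlin1 (0.951), Dgkk (0.924) and Pde3a (0.912), Ntf3 by Mas1 (0.913), Plxnc1 (0.912) and Rgl1 (0.907), and Ret by Fzd1 (0.908), G3bp1 (0.905) and Rwdd2b (0.892). The points share libraries, depth and the marker levels given above, and the coefficients are a description.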

How the data were processed

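RNA from prefrontal cortex of mice aged 8 months was sequenced as 17 poly(A) libraries, paired-end. Per the labels, reads were trimmed with Trimmomatic 0.39, aligned to mm10 with STAR 2.7.10b and quantified with StringTie 1.3.6; DESeq2 1.42.0 is also listed. The authors deposited estimated counts per gene, not normalized, which are whole numbers of about 3 counts per fragment. The annotation release and the strand setting are not given in the sources used here. Depth was 8838334 to 227651681 counts per library, and a count of 0 allows up to 9 counts (3 fragments), a limit that covers counting error only.

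Genes were matched by symbol. The estimated counts were tested as deposited with edgeR 4.0.16 (R 4.3.3), with TMM library sizes, filterByExpr by genotype and 1 mean per genotype, and p-values were adjusted over 23062 genes (threshold 0.05, common biological coefficient of variation 0.316). CPM were computed from TMM sizes. Labels give no animal identifiers, so p-values measure the spread between these libraries. The 9 genes, the pathway and marker lists and the tests were chosen with earlier results of these data known. Named genes were the 9, some of the called pathway genes, and the 3 genes most alike by Pearson r of log2(CPM + 1) for each called gene. The marker genes named were chosen after their values were seen. Some called genes of the pathway lists are not reported here. Scripts were tested on simulated data. The alternatives were DESeq2 1.42.0, its size factors in edgeR, no filter, at least 10 counts in every library, 2 genotypes in the fit, the replicate number as a block, counts divided by 3, limma 3.58.1 voom with quality weights, near-identical libraries averaged, Ddx3y or the striatal marker score as covariate, and each library left out. Fits of replicates 1 to 3, of replicates 4 to 6 and without WT replicates 4 and 5 were added after the data had been seen. Positions are from GENCODE M21.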

Additional observations from a re-analysis of the deposited data

Results flagged for a closer look

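A single library stood far from the others of its genotype in 4 of the 27 groups of values examined by Dixon's criterion. Chance gives about 1 in 20 for independent, normally distributed values. The hTau and CgA-KO/hTau groups hold near-identical libraries, so this rate may not apply to them. Ntf3 was at 1.09 CPM in hTau replicate 1, where the other 5 libraries were at 0.467 to 0.628 CPM, and at 0.379 CPM in CgA-KO/hTau replicate 2, where the others were at 0.978 to 1.32 CPM. Gdnf was at 0.200 CPM in hTau replicate 1, against 0 to 0.0719 CPM in the others. That value came from 11 counts, as many as in hTau replicate 5, and a count of 0 in replicate 1 would allow up to 0.164 CPM. Gfra2 was at 146.9 CPM in hTau replicate 2, against 122 to 130.5 CPM in the others.

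Bdnf in CgA-KO/hTau differed from hTau by -0.50 among replicates 1 to 3 (adjusted p = 0.0699, edgeR) and by 0.61 among replicates 4 to 6 (adjusted p = 0.0644). It differed from WT by -0.72 and by 0.66. Within CgA-KO/hTau, replicates 1 to 3 and 4 to 6 did not overlap for Bdnf, nor for 35.1% of all genes tested. The difference between the sets was not tested.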

How the results depend on the processing

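Over the alternatives apart from omissions of single libraries, the adjusted p in WT minus hTau ranged from 0.000170 to 0.268 for Ntf3, from 0.000117 to 0.469 for Gdnf, from 4.36e-05 to 0.299 for Ngfr and from 0.00122 to 0.957 for Gfra1. In CgA-KO/hTau minus hTau it ranged from 0.0117 to 0.654 for Gdnf, from 0.000495 to 0.169 for Gfra1 and from 0.00692 to 0.368 for Ret. Without a filter on low counts the calls of Gfra1 in WT (0.0545) and Gdnf in CgA-KO/hTau (0.0513) were lost. With at least 10 counts in every library Gdnf was not tested. Where a value moved, the cause was not tested.

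All genes called numbered 1361, 2242 and 1489 in WT minus hTau, CgA-KO/hTau minus hTau and CgA-KO/hTau minus WT. DESeq2 called 2396, 3958 and 2623, with 2 of the 9 genes in the last and a median log2 difference of 0.13 over 39993 genes in the second. Voom with quality weights called 3967, 5229 and 2458 with 5, 4 and 1 of the 9, 2 genotypes in the fit 2275 in the first with 5 of the 9 and 266 in the last, averaged libraries 430, 156 and 577 with 0 of the 9 in each, and the striatal score as covariate 3859, 1312 and 5021 with 1, 1 and 3 of the 9. Counts divided by 3 and Ddx3y as covariate each gave 1 of the 9 in the last. Replicates 1 to 3 gave 128, 6713 and 4474 with 0, 5 and 3 of the 9; replicates 4 to 6 gave 190 and 718 in the comparisons of CgA-KO/hTau, with 0 and 2 of the 9; without WT replicates 4 and 5 there were 445, 3379 and 771, with 1 of the 9, Gdnf, in the first. With 1 library left out, all genes called were 632 to 1658, 1019 to 3822 and 627 to 2099, and the 9 genes had 2 to 4, 1 to 3 and 0 to 1 called; the count of 2 came without WT replicate 5.

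The main fit did not pair the samples by replicate number. Deviations of same-numbered libraries from their genotype means correlated at -0.25 to 0.456 over 16 pairs. Differently numbered pairs were not set beside them, so these values cannot decide whether the replicate number pairs the samples. With the number as a block, 660, 654 and 614 genes were called, and 1 of the 9, Gfra1, remained called in CgA-KO/hTau minus hTau.

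Signs turned only for differences near 0 and for the split genes. Ntrk3 in WT minus hTau became 0.0023 with DESeq2's size factors, 0.011 with 10 counts in every library, 0.023 with the block, 0.0043 with counts divided by 3, 0.035 with voom, 0.078 in replicates 4 to 6 and 0.42 with the striatal score. Ntrk2 in that comparison became -0.019 without a filter, -5.2e-05 with voom, -0.016 with averaged libraries, -0.048 in replicates 1 to 3 and -0.012 without WT replicates 4 and 5; Bdnf became -0.049 in replicates 4 to 6. With the striatal score Gfra1, Gfra2 and Ret became -0.043, 0.53 and 0.26 there. In CgA-KO/hTau minus hTau, Bdnf became -0.12 with voom and -0.50 in replicates 1 to 3, Ntrk2 -0.0077 in replicates 1 to 3 and Ntrk3 0.12 in replicates 4 to 6. Against WT, Bdnf became -0.10 with the block, -0.21 with voom, -0.070 with Ddx3y, -0.70 with the striatal score and -0.72 in replicates 1 to 3, Gfra2 -0.60 with the striatal score and -0.49 in replicates 1 to 3, Ntrk2 -0.022 with the striatal score, and Ntrk3 0.046 and Gfra1 -0.37 in replicates 4 to 6. With 1 library left out the ranges were -0.035 to 0.033 for Ntrk2, -0.035 to 0.051 for Ntrk3 and -0.35 to 0.0052 for Ret in WT minus hTau, and -0.075 to 0.20 for Bdnf and -0.0039 to 0.31 for Gfra2 against WT. Values near 1 CPM in WT replicate 4 lie at the limit of its depth.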
